A study of Mus musculus with 4 samples.

Results

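The genes of heme breakdown and iron handling examined here were 9 genes named by symbol, HMOX1, BLVRA, BLVRB, CD163, FTH1, FTL1, SLC40A1, TFRC and SLC11A1. The rule that names them uses no measured value, but the genes were proposed with earlier results of these data known. Of these, 8 were among the 14123 genes listed once at 7 days post injury (dpi), and 7 were among the 11470 genes listed once at 21 dpi. CD163 was not listed at either time point, and BLVRB was not listed at 21 dpi. Symbols are written in capitals, as in the deposited table.

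RNA was sequenced from spinal cord segments that contained the lesion, taken from male mice 7 or 21 days after a contusion of 50 kdyne at thoracic vertebra 9. All mice were adults of 3 to 5 months at surgery and were human ApoE targeted replacement mice, in which the coding region of human ApoE3 or ApoE4 stands in place of the mouse gene. The 4 groups were ApoE3 at 7 dpi, ApoE4 at 7 dpi, ApoE3 at 21 dpi and ApoE4 at 21 dpi. Each group had 3 mice, but the deposited table holds 1 pooled FPKM value per gene and group (fragments scaled by transcript length and library size). No difference below thus has a replicate check computed here, and no p-value is given. The authors' own p-values for the comparison of genotypes, also in that table, were not used. Uninjured and sham-operated mice were not analysed here. The libraries were brought to equal read numbers before alignment, and the depth for any single gene is unknown. In 1 replicate, whose group is not given in the sources used here, fewer reads aligned than in the others.

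The table can be read in 2 ways as to genotype. Its comparison label places ApoE3 first, and that order was followed here for the value columns. The sample labels beside the same columns place ApoE4 first. Under that other reading every difference between genotypes given here has the opposite direction and the same size, whereas the differences between 7 and 21 dpi hold in both columns with their genotype names exchanged.

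When red blood cells leave damaged vessels, macrophages take up hemoglobin or whole cells, and heme oxygenase opens the heme ring to release iron, carbon monoxide and biliverdin, which biliverdin reductases turn into bilirubin. Iron inside the cell is stored in ferritin, a hollow shell built of heavy and light chains, or leaves through ferroportin, the iron exporter. Transferrin receptor brings iron in. Bleeding into the cord is part of a contusion injury, and in the intact nervous system oligodendrocytes are known as cells rich in iron and ferritin.

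The levels of these genes spanned a wide range. FTH1, the ferritin heavy chain, was the gene with rank 5 among all listed genes in both genotypes at 7 dpi and with rank 3 in both at 21 dpi. FTL1, the light chain, had rank 35 in ApoE3 and 18 in ApoE4 at 7 dpi, and rank 276 and 204 at 21 dpi. The other 6 listed genes lay between 26.8 and 106 FPKM at 7 dpi, beside a median of 33.0 FPKM over all listed genes in each genotype. In ApoE3 at 7 dpi their order from the highest was BLVRA, SLC11A1, HMOX1, TFRC, SLC40A1 and BLVRB. At 21 dpi it was BLVRA, TFRC, SLC11A1, SLC40A1 and HMOX1 in both genotypes. Whether neighbours in these orders differ beyond the spread between mice cannot be judged from 1 value per group.

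**Figure D1:**
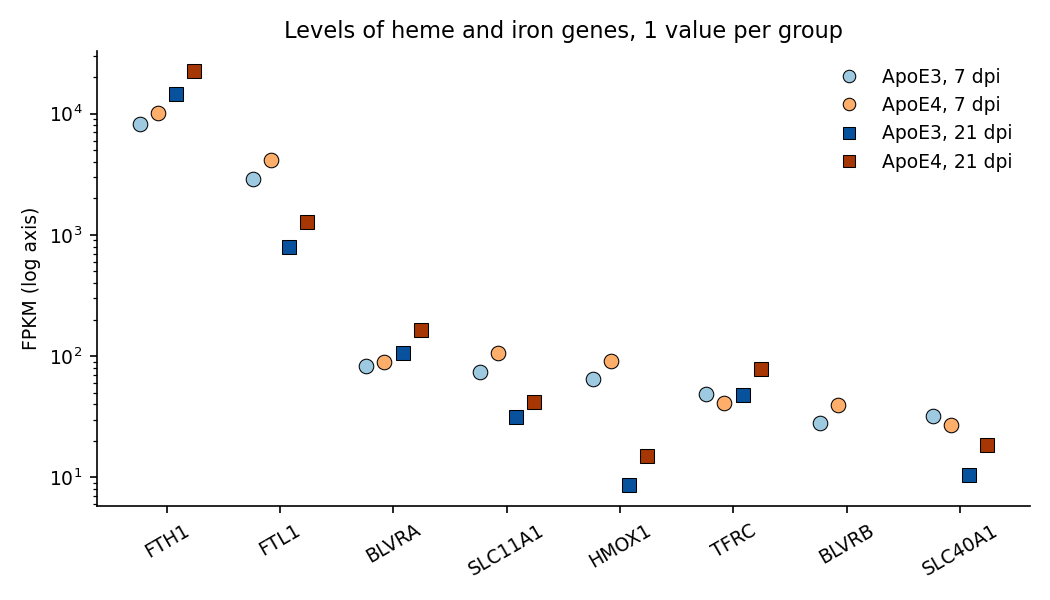
FPKM (log axis) of the 8 listed genes in each of the 4 groups, 1 pooled value per point, with circles for 7 dpi and squares for 21 dpi. FTH1 was higher at 21 than at 7 dpi in both genotypes, whereas HMOX1, FTL1, SLC11A1 and SLC40A1 were lower; genotype names follow the comparison label of the table and would be exchanged under the other reading.

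HMOX1, the inducible heme oxygenase, had 65.4 FPKM in ApoE3 and 90.6 FPKM in ApoE4 at 7 dpi, and 8.60 in ApoE3 and 14.97 in ApoE4 at 21 dpi. Both values at 7 dpi were thus above both at 21 dpi. Ratios of a single gene between groups are given on the scale of log2 of FPKM plus 1. On this scale the difference of 21 from 7 dpi was -2.79 in ApoE3 and -2.52 in ApoE4, a fall of 6.92-fold and 5.74-fold. Its place among all listed genes moved from percentile 67.2 to 25.2 in ApoE3 and from 74.9 to 29.4 in ApoE4. HMOX2, the constitutive heme oxygenase, had 236 FPKM in ApoE3 and 240 FPKM in ApoE4 at 7 dpi and was not listed at 21 dpi.

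BLVRA, a reductase that acts on biliverdin, did not fall with HMOX1. BLVRA, biliverdin reductase A, had 82.3 FPKM in ApoE3 and 89.0 FPKM in ApoE4 at 7 dpi, and 107 in ApoE3 and 163 in ApoE4 at 21 dpi. It rose 1.82-fold in ApoE4 from 7 to 21 dpi, and its difference in ApoE3, 1.29-fold, fell short of 1.3-fold, the smallest fold counted here. BLVRB, biliverdin reductase B, which also reduces flavins, had 28.3 FPKM in ApoE3 and 39.9 FPKM in ApoE4 at 7 dpi. HMOX1 had 0.794 times the FPKM of BLVRA in ApoE3 and 1.02 times in ApoE4 at 7 dpi, and 0.0805 and 0.0920 times at 21 dpi. Relative to BLVRB, HMOX1 was at 2.31 in ApoE3 and 2.27 in ApoE4 at 7 dpi. The ratio of BLVRB to BLVRA was 0.344 and 0.448.

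CD163, the macrophage receptor for complexes of hemoglobin with haptoglobin, has no value to report. A gene that is not listed is not a gene at 0: CD68, with 1309 and 1696 FPKM at 7 dpi, was not listed at 21 dpi. Other markers of the perivascular macrophages that carry CD163 were present. STAB1 had 329 FPKM in ApoE3 and 559 FPKM in ApoE4 at 7 dpi, and 36.7 and 43.1 at 21 dpi, whereas MRC1 had 2.02 and 1.88 FPKM at 7 dpi and LYVE1 was not listed.

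Of the ferritin chains, the heavy chain rose and the light chain fell. FTH1, which carries the ferroxidase site that oxidizes incoming iron, had 8250.0 FPKM in ApoE3 and 10043 FPKM in ApoE4 at 7 dpi, and 14589.8 in ApoE3 and 22271 in ApoE4 at 21 dpi. FTL1, which favours the formation of the iron core, had 2911 FPKM in ApoE3 and 4136 FPKM in ApoE4 at 7 dpi, and 791 in ApoE3 and 1268 in ApoE4 at 21 dpi. Each 21 dpi value of FTH1 was above each 7 dpi value, and the reverse held for FTL1. From 7 to 21 dpi FTH1 rose 1.77-fold in ApoE3 and 2.22-fold in ApoE4, and FTL1 fell 3.68-fold and 3.26-fold. Ferritin genes have near-identical copies and pseudogenes in the genome between which reads can be split, so these levels are uncertain.

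Since FPKM is set per length, the chains can be compared within a group, and that ratio does not depend on the scaling of the group. FTH1 stood at 2.83 times FTL1 in ApoE3 and 2.43 times in ApoE4 at 7 dpi, and at 18.4 and 17.6 times at 21 dpi. The ratio was thus 6.51-fold higher at 21 than at 7 dpi in ApoE3 and 7.23-fold higher in ApoE4. The sum of both chains was 11161 FPKM in ApoE3 and 14179 FPKM in ApoE4 at 7 dpi, and 15381 and 23539 at 21 dpi, a rise of 1.38-fold and 1.66-fold. As a share of all listed FPKM, the sum was 0.669% and 0.850% at 7 dpi, and 1.02% and 1.15% at 21 dpi.

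**Figure D2:**
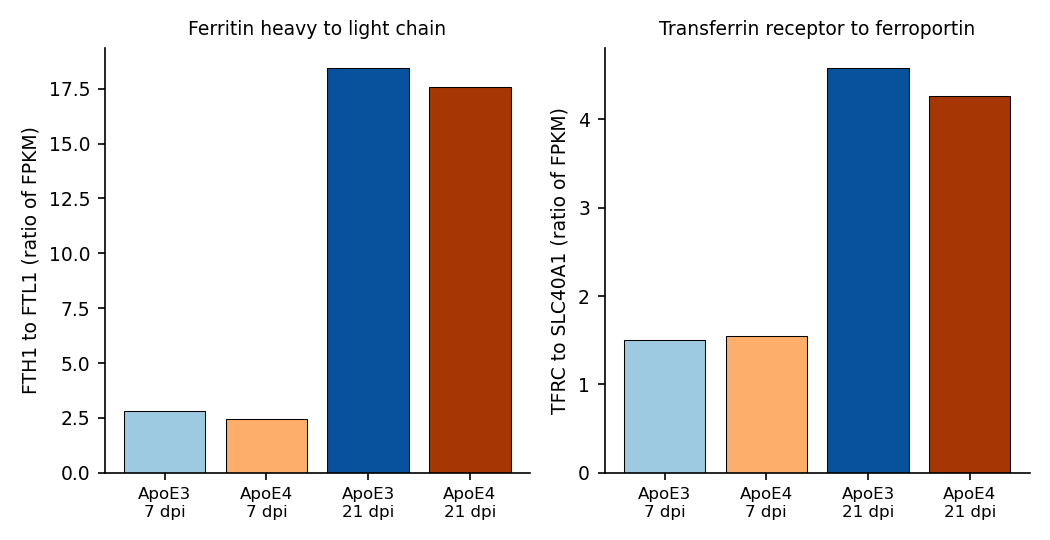
Ratio of FTH1 to FTL1 FPKM and ratio of TFRC to SLC40A1 FPKM in each of the 4 groups, 1 bar per group from 1 pooled value of each gene. Both ratios were higher at 21 dpi (18.4 and 17.6 for ferritin, 4.58 and 4.26 for transferrin receptor to ferroportin) than at 7 dpi in both genotypes; genotype names would be exchanged under the other reading of the table.

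The sequence before the start site is shown for both ferritin genes, because their levels moved apart, and for BLVRA, the only one of these genes in which the core of the antioxidant response element was found. RefSeq promoter sequences of GRCm38.p6 were matched for 7 of the 9 genes, in 10 windows that each span 250 bases before to 50 after a start site. HMOX1 and SLC40A1 had no entry. Searched on both strands, TGACNNNGC, the antioxidant response element core, was in 12.4% of 32851 windows and in 1 of the 10 windows of these genes, that of BLVRA. There it lies 49 bases before the start, on the opposite strand, at chr2:127070608-127070616, written GCTCGGTCA on the strand of the gene. The loop of the iron responsive element, taken as a bulged C, any 5 bases, the letters CAGTG and 1 more base, was searched on the sense strand from the start site on. It was in 1.55% of windows and in none of the 10 windows of these genes, which reach only 50 bases past the start. The rest of each message was not searched, so whether these messages carry the element was not examined. CCAAT on both strands was added after the sequences were read. It was in 37.4% of all windows and in 5 of the 10 windows of these genes, 1 each of BLVRA, CD163, FTH1, FTL1 and TFRC. The motifs do not overlap in the windows shown. Capitals mark TGACNNNGC and CCAAT in either direction, and the windows are chr2:127070407-127070656 on the plus strand for BLVRA, chr19:9982396-9982645 on the plus strand for the second of 2 FTH1 starts and chr7:45459887-45460136 on the minus strand for FTL1.
BLVRA: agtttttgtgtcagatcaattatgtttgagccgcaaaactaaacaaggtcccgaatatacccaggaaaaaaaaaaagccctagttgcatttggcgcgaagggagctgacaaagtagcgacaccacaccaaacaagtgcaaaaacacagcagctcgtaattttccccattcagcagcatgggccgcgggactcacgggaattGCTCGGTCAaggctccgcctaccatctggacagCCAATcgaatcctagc
FTH1: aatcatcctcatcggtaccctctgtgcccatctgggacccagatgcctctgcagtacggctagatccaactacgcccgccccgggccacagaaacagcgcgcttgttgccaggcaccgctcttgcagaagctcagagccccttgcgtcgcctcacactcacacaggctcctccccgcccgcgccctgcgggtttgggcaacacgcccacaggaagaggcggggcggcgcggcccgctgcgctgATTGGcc
FTL1: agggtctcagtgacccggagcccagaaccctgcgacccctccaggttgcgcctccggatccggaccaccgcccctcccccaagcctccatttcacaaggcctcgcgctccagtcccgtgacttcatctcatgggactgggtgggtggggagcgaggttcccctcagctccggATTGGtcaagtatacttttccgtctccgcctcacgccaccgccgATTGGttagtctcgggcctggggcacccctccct
On the strand of the gene the opposite-strand form of CCAAT reads ATTGG. In FTL1 it begins 78 and 34 bases before the start, and in FTH1 it begins 7 bases before it. A match is a description of letters, and where letters were not found this says nothing about the factor.

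SLC40A1, ferroportin, and TFRC, the transferrin receptor, differed in their course. SLC40A1 had 32.2 FPKM in ApoE3 and 26.8 FPKM in ApoE4 at 7 dpi, and 10.5 in ApoE3 and 18.5 in ApoE4 at 21 dpi. It fell 2.90-fold in ApoE3 and 1.43-fold in ApoE4. TFRC had 48.4 FPKM in ApoE3 and 41.4 FPKM in ApoE4 at 7 dpi, and 47.9 in ApoE3 and 78.8 in ApoE4 at 21 dpi, so that the ApoE4 value at 21 dpi stood above the other 3. TFRC was 1.503 times SLC40A1 in ApoE3 and 1.54 times in ApoE4 at 7 dpi, and 4.58 and 4.26 times at 21 dpi. SLC11A1, the transporter also known as NRAMP1 that moves iron out of the phagosome of macrophages, had 73.4 FPKM in ApoE3 and 106 FPKM in ApoE4 at 7 dpi, and 31.4 and 41.7 at 21 dpi. It fell 2.29-fold in ApoE3 and 2.502-fold in ApoE4.

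The first comparison asks how these genes differed between the early lesion at 7 dpi and the later one at 21 dpi within a genotype. HMOX1, FTL1, SLC11A1 and SLC40A1 fell by at least 1.3-fold in both genotypes. FTH1 rose in both, and BLVRA and TFRC rose in ApoE4. In ApoE3, 1 of 7 genes rose and 4 fell, beside 31.3% and 23.6% of the 10876 genes listed at both time points. In ApoE4, 3 rose and 4 fell, beside 59.0% and 10.9%. The median log2 difference over all genes with a mean of at least 1 FPKM was 0.089 in ApoE3 and 0.53 in ApoE4. Relative to these medians FTH1 was still higher at 21 dpi, by 0.73 in ApoE3 and 0.62 in ApoE4, whereas BLVRA in ApoE4 was at 0.34, under 1.3-fold. The time points may have been scaled separately, so levels across them are set side by side as a description.

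**Figure D3:**
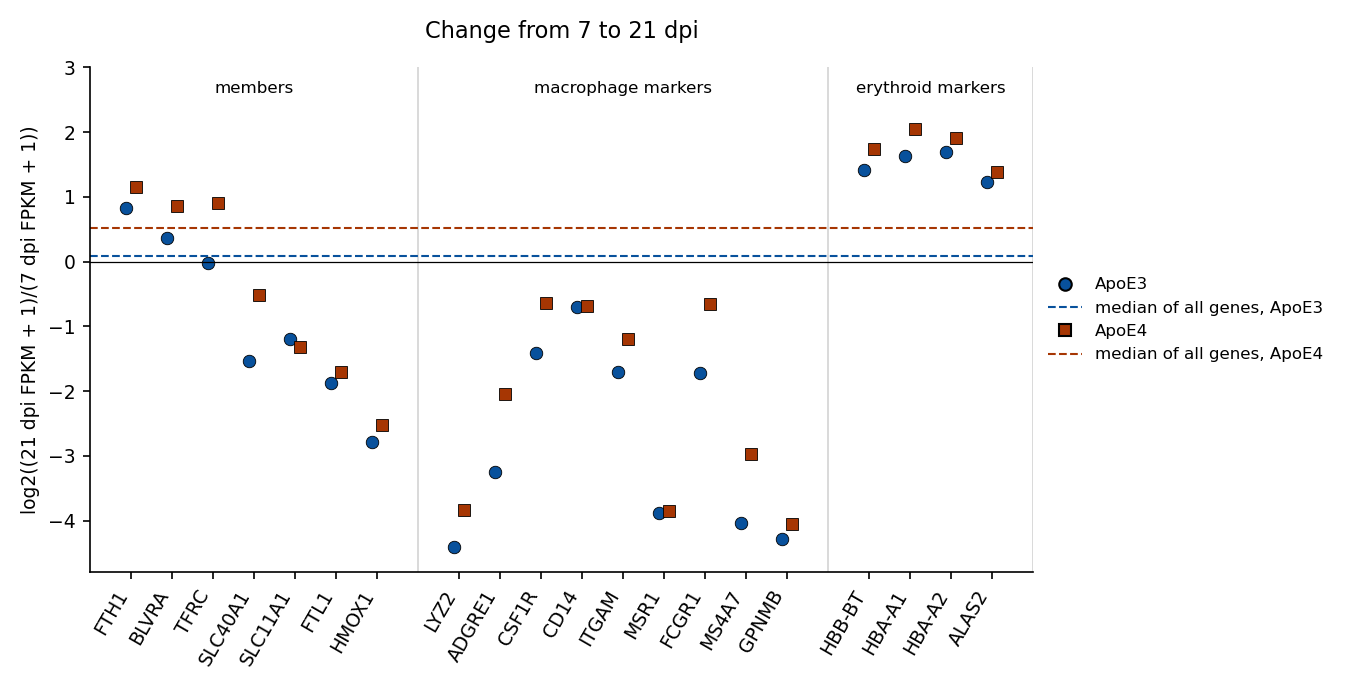
Log2 ratio of FPKM plus 1 at 21 dpi to that at 7 dpi for the 7 genes listed at both time points, for macrophage markers and for erythroid markers, with circles for ApoE3, squares for ApoE4 and dashed lines at the median of all genes. The 9 macrophage markers and 4 of the 7 genes lie below 0 in both genotypes, while the 4 erythroid markers lie above it; genotype names would be exchanged under the other reading of the table.

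Markers of macrophages were lower at 21 dpi alongside HMOX1, FTL1, SLC11A1 and SLC40A1. Of 12 macrophage markers, 9 were listed at both time points and all 9 fell in both genotypes. Their summed level was 6117 FPKM in ApoE3 and 7978 FPKM in ApoE4 at 7 dpi, and 394 and 737 at 21 dpi, a fall of 15.5-fold and 10.8-fold. The most abundant, LYZ2, had 4522 and 6077 FPKM at 7 dpi, and 212 and 426 at 21 dpi. The 5 perivascular macrophage markers listed at both summed to 445 and 701 FPKM at 7 dpi, and to 49.9 and 63.3 at 21 dpi. The summed microglial markers moved less, from 288 and 290 FPKM over 4 genes at 7 dpi to 222 and 389 at 21 dpi. SIGLECH, the most abundant of the 4, had 112 and 104, and 123 and 237. The single genes did not move alike. In ApoE3 the other 3 fell past 1.3-fold, with log2 differences of -0.63 for TMEM119, -0.41 for SALL1 and -1.65 for OLFML3. In ApoE4 OLFML3 fell past it, at -1.04, and SIGLECH rose past it, at 1.19. The microglial markers P2RY12 and CX3CR1 and the macrophage marker CTSS were not listed. In whole tissue, fewer cells of a type and less RNA per cell cannot be told apart, and the part of macrophage numbers in these falls was not tested.

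Set against the macrophage sum, a ratio chosen after the values were seen, none of the 4 falling genes fell as far as the summed markers, of which LYZ2 made up most at 7 dpi. Against single markers the order differed. HMOX1 fell further than CSF1R, CD14, ITGAM and FCGR1 in both genotypes, with log2 differences of -1.41, -0.70, -1.71 and -1.72 for these in ApoE3 and -0.64, -0.69, -1.19 and -0.65 in ApoE4. The median of the 9 markers was -3.24 in ApoE3 and -2.04 in ApoE4, beside -2.79 and -2.52 for HMOX1. HMOX1 stood at 10.7 FPKM per 1000 FPKM of macrophage markers in ApoE3 and 11.4 in ApoE4 at 7 dpi, and at 21.8 and 20.3 at 21 dpi. FTL1 stood at 476 and 518 at 7 dpi, and at 2009 and 1722 at 21 dpi. SLC11A1 moved from 12 to 79.8 in ApoE3 and from 13.3 to 56.7 in ApoE4, and SLC40A1 from 5.27 to 26.6 and from 3.36 to 25.1.

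The summed markers of oligodendrocytes and of neurons were higher at 21 dpi alongside FTH1. The 4 oligodendrocyte markers listed at both time points summed to 126973 FPKM in ApoE3 and 134118 FPKM in ApoE4 at 7 dpi, and to 209998 and 291325 at 21 dpi, a rise of 1.65-fold and 2.17-fold beside 1.77-fold and 2.22-fold for FTH1. Most of this sum was MBP, the myelin basic protein gene, with 201348 and 278678 FPKM at 21 dpi. The single genes did not all follow. In ApoE3 MBP and MOBP rose past 1.3-fold, MOG had 248 FPKM at 7 dpi and 255 at 21 dpi, and CLDN11 fell from 286 to 217.5. In ApoE4 MBP, MOBP and MOG rose past it and CLDN11 had 265 and 315. The summed level of the 6 neuronal markers rose 1.57-fold in ApoE3 and 3.04-fold in ApoE4. SNAP25, the most abundant of the 6, had 3366 and 2545 FPKM at 7 dpi, and 5336 and 7812 at 21 dpi. The 6 endothelial markers, led by SLCO1A4, summed to 352 and 326 FPKM at 7 dpi, and to 429 and 550.2 at 21 dpi. In ApoE3 only SLCO1A4 rose past 1.3-fold, and in ApoE4 5 of the 6 did. CDH5 fell past it in both. The sum of 7 astrocyte markers was 1.64-fold lower at 21 dpi in ApoE3 and 1.15-fold higher in ApoE4. The part of these cell types in the rise of FTH1 was not tested.

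Hemoglobin genes were also higher at 21 dpi. HBA-A1, the most abundant of the erythroid markers listed at both time points, had 146 FPKM in ApoE3 and 142 FPKM in ApoE4 at 7 dpi, and 458 and 590 at 21 dpi. The 4 erythroid genes listed at both, HBB-BT, HBA-A1, HBA-A2 and ALAS2, summed to 346 and 347 FPKM at 7 dpi, and 1063 and 1335 at 21 dpi. HBB-BS, listed at 7 dpi only, had 146 and 142.5 FPKM. Of the 13 erythroid markers, 8 were not listed, SLC4A1 of the red cell membrane among them. The hemoglobin genes are near-identical copies, so their separate values are uncertain. HMOX1 and the hemoglobin genes thus moved in opposite directions between these time points.

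The second comparison asks how the genotypes differed at 7 dpi. Under the reading followed here, HMOX1, BLVRB, FTL1 and SLC11A1 were higher in ApoE4 by at least 1.3-fold, and none was higher in ApoE3 by that much. These 4 of 8 listed genes stand beside 4.76% of all 14123 genes in that direction and 3.78% in the other. Their log2 ratios of ApoE4 to ApoE3 were 0.46 for HMOX1, 0.48 for BLVRB, 0.51 for FTL1 and 0.52 for SLC11A1, folds of 1.38 to 1.44. Between 97.1% and 97.9% of all listed genes had a lower ratio than each of these 4. FTH1 at 0.28 and BLVRA at 0.11 were under the fold, and SLC40A1 at -0.25 and TFRC at -0.22 lay on the other side of 0. The median over the 8 genes was 0.37, and that over all genes with a mean of at least 1 FPKM was -0.0018. A fold of 1.5 left none of the 4.

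**Figure D4:**
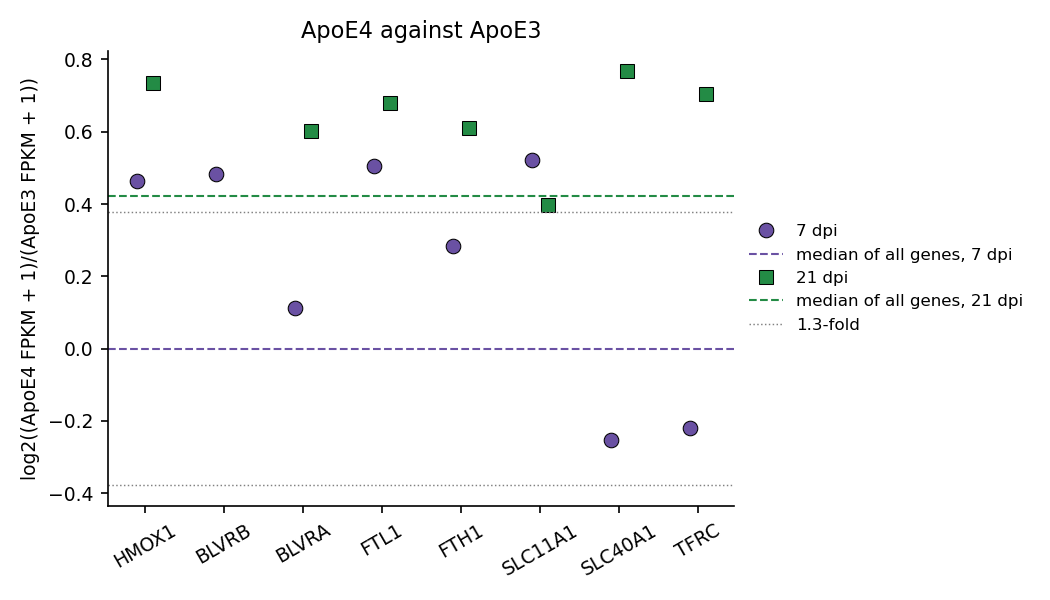
Log2 ratio of ApoE4 to ApoE3 on FPKM plus 1 for the 8 listed genes, with circles for 7 dpi and squares for 21 dpi, dashed lines at the median of all genes at each time point and dotted lines at 1.3-fold. At 21 dpi all 7 listed genes lie above the upper dotted line and 6 lie above the median of all genes, 0.42; every sign is reversed under the other reading of the table.

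Macrophage markers differed in the same direction at 7 dpi. Their sum was 1.304-fold higher in ApoE4, with 4 of 11 listed markers past 1.3-fold, LYZ2, CD14, MSR1 and MS4A7, and none past it in the other direction. CSF1R, with 197 FPKM in ApoE3 and 182 FPKM in ApoE4, and ADGRE1, with 111 and 110, were not among them. The perivascular macrophage sum was 1.58-fold higher in ApoE4, and most of that sum was STAB1. Of 7 listed perivascular markers 3 were past 1.3-fold, STAB1, PF4 with 12.4 and 21.1 FPKM, and F13A1 with 36.9 and 55.4, which is outside the sum because it was not listed at 21 dpi. COLEC12 at -0.097 and MRC1 at -0.071 had log2 ratios on the other side of 0. The microglial and erythroid sums differed by less, 1.005-fold and 1.003-fold. All 8 neuronal markers had lower values in ApoE4, with a median log2 ratio of -0.26. The part of these cell types in the difference of HMOX1, BLVRB, FTL1 and SLC11A1 was not tested.

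The third comparison asks the same at 21 dpi. Under the reading followed here all 7 listed genes were higher in ApoE4 by at least 1.3-fold, as were 58.9% of all 11470 genes, while 2.01% of all genes were higher in ApoE3. Log2 ratios ran from 0.40 for SLC11A1 to 0.77 for SLC40A1, with 0.73 for HMOX1, 0.71 for TFRC, 0.68 for FTL1, 0.61 for FTH1 and 0.60 for BLVRA. Nearly the whole table was shifted in this comparison. The median over all genes with a mean of at least 1 FPKM was 0.42, and 93.8% of listed genes had a ratio above 0. After this median was subtracted, none of the 7 genes was past 1.3-fold, beside 8.06% of all genes with higher values in ApoE4 and 7.46% with higher values in ApoE3. Relative to it, 6 of the 7 were above 0, from 0.18 for BLVRA to 0.34 for SLC40A1, and SLC11A1 was at -0.026.

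Summed markers of the cell types of the lesion were higher in ApoE4 at 21 dpi, some by more than the shift of all genes. The macrophage sum was 1.87-fold higher in ApoE4, the microglial sum 1.75-fold, the astrocyte sum 1.83-fold and the neuronal sum 1.504-fold, with GFAP, the most abundant astrocyte marker, at 8201 and 15313 FPKM. The oligodendrocyte sum was 1.39-fold, the endothelial sum 1.28-fold, the perivascular macrophage sum 1.27-fold and the erythroid sum 1.26-fold higher. After the median of all genes was subtracted, 4 of 9 macrophage markers were still past 1.3-fold in ApoE4, with a median log2 ratio of 0.34 over the 9, as were 2 of 4 neutrophil markers, with a median of 0.39, beside 8.06% of all genes. So were 2 of 8 astrocyte, 2 of 6 neuronal, 1 of 4 microglial, 1 of 5 perivascular macrophage and 1 of 6 endothelial markers. No oligodendrocyte or erythroid marker was. The endothelial marker CDH5, at -0.49, was past the fold in the other direction. Genes of tissues outside the cord stood further apart. Of 8 skeletal muscle markers 7 were listed and all 7 were higher in ApoE4, with TNNT3 at 22.5 FPKM in ApoE3 and 515 FPKM in ApoE4, and MYH4 listed at 0 in ApoE3. At 7 dpi 6 of them were listed and 5 of these had lower values in ApoE4, with 2 past 1.3-fold in that direction and 1 in the other. Of 8 hepatocyte markers 6 were listed at 21 dpi, all 6 higher in ApoE4, with APOA2 at 5.38 and 59.2 FPKM, and none was listed at 7 dpi. What part these tissues had in the levels of the heme and iron genes was not tested.

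Of the 7 genes listed at both time points, SLC40A1 and TFRC had a ratio below 0 at 7 dpi and above 0 at 21 dpi, as did 49% of the 10876 genes listed at both, and 26.1% once the medians were subtracted. SLC40A1 went from -0.25 at 7 dpi to 0.77 at 21 dpi and TFRC from -0.22 to 0.71. After the medians of all genes were subtracted, the values at 21 dpi were 0.34 and 0.28. These genes encode the exit and the entry of iron, and their ratio to each other, 1.503 and 1.54 at 7 dpi and 4.58 and 4.26 at 21 dpi, differed little between genotypes at either time. The other 5 genes listed at both time points, HMOX1, BLVRA, FTH1, FTL1 and SLC11A1, had a positive ratio at both, though SLC11A1 at 21 dpi did not after the subtraction. None of these differences between time points was tested.

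The rest of the heme and iron pathway was examined in 7 lists of 71 genes. At 7 dpi 61 were listed, none was higher in ApoE4 by at least 1.3-fold and 2 were higher in ApoE3, beside 4.76% and 3.78% of all genes. Both are in the list for iron uptake, SCARA5, a receptor for ferritin, with 2.67 FPKM in ApoE3 and 1.48 FPKM in ApoE4, and LCN2, lipocalin 2, which binds iron carriers of bacteria, with 29.4 and 18.1. The median log2 ratio of the 61 genes was 0.0041. Regulators of HMOX1 and ferritin were under the fold at 7 dpi. NFE2L2, the activator NRF2, had 79.5 and 94.7 FPKM, and BACH1, the heme-sensing repressor, had 29.7 and 27.1. IREB2 and ACO1, the iron regulatory proteins that bind ferritin and transferrin receptor messages, had 34.1 and 33.6 FPKM and 8.14 and 9.18 FPKM. KEAP1, which holds NFE2L2 back, had 89.5 and 88.1. NCOA4, the receptor that delivers ferritin to breakdown, had 183 and 182.

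In the other lists at 7 dpi the most abundant genes were PPOX among heme synthesis genes, with 158 FPKM in ApoE3 and 192 FPKM in ApoE4, LRP1, which takes up complexes of heme and hemopexin, with 255.5 and 308, and NEO1 in the export and hepcidin list, with 242 and 216. PCBP2, which hands iron to ferritin, had 3580.4 and 3642 FPKM, and ISCU, the scaffold for iron-sulfur clusters, had 242 and 224.

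**Figure D5:**
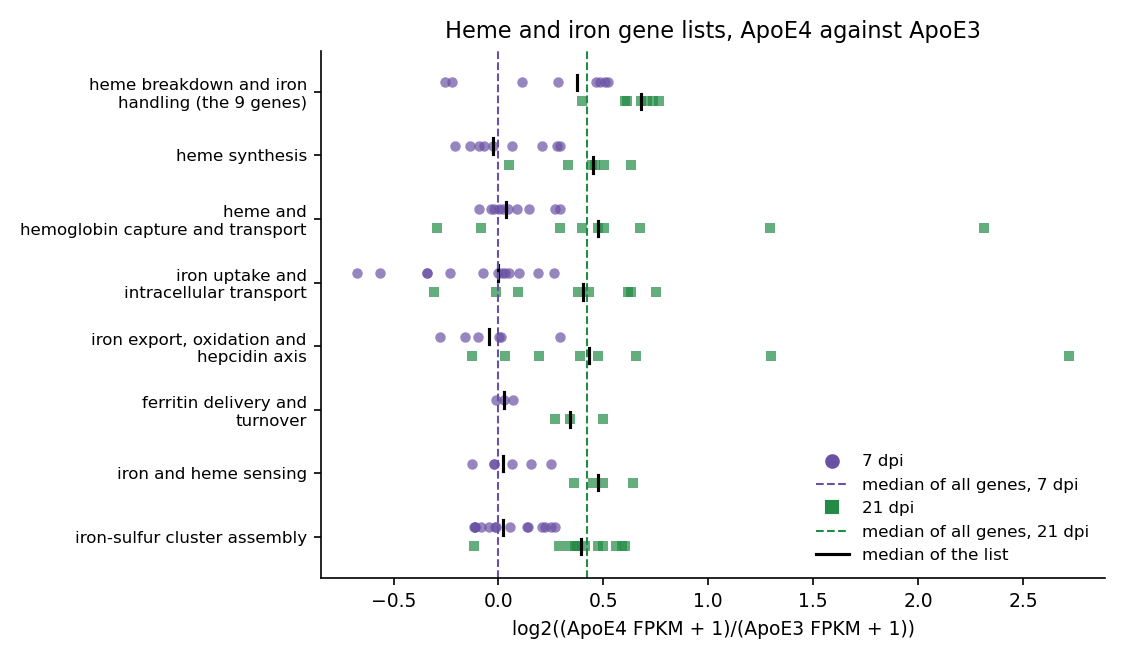
Log2 ratio of ApoE4 to ApoE3 on FPKM plus 1 for the listed genes of the 9-gene group and of 7 heme and iron lists, 1 point per gene, with circles for 7 dpi, squares for 21 dpi, black ticks at the median of each list and dashed lines at the median of all genes. The medians of the 7 lists run from -0.047 to 0.034 at 7 dpi and from 0.34 to 0.48 at 21 dpi, near the median of all genes, while the medians of the 9-gene group, 0.37 and 0.68, lie to the right of it; every sign is reversed under the other reading of the table.

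At 21 dpi 50 of the 71 genes were listed, 29 were higher in ApoE4 by at least 1.3-fold and none was higher in ApoE3. The median log2 ratio was 0.44, and 0.014 after the median of all genes was subtracted, with 4 genes then past the fold in ApoE4 and 7 in ApoE3, beside 8.06% and 7.46% of all genes. The 4 were HAMP, hepcidin, with 0.0924 FPKM in ApoE3 and 6.20 FPKM in ApoE4, HP, haptoglobin, with 0.386 and 5.90, HPX, hemopexin, with 0.245 and 2.05, and HJV, hemojuvelin, with 0.734 and 3.27. Hepcidin, haptoglobin and hemopexin are made mainly by the liver, and hemojuvelin by muscle and liver. The hepatocyte and skeletal muscle markers given above were also higher in ApoE4 at 21 dpi, and their part was not tested. Of the 4 genes only HP was listed at 7 dpi, with 4.11 FPKM in ApoE3 and 5.25 FPKM in ApoE4, when no hepatocyte marker was listed. From 7 to 21 dpi HP thus fell in ApoE3 and differed little in ApoE4. The 7 on the other side were FLVCR2, ABCG2, STEAP4, SCARA5, CP, TFR2 and BOLA3, among which CP, the ferroxidase ceruloplasmin, had 50.99 and 46.6 FPKM and ABCG2, a heme exporter, had 105 and 85.5. These 7 pass the fold only through the subtraction, and TFR2, with 27.1 and 27.65 FPKM, was not higher in ApoE3 before it. Low levels were those of FLVCR2, with 2.13 and 1.96 FPKM, STEAP4, with 1.33 and 1.31, and SCARA5, with 2.05 and 1.465.

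By list, 4 of 6 listed heme synthesis genes were higher in ApoE4 at 21 dpi by at least 1.3-fold, led by CPOX with 23.1 and 36.3 FPKM. For capture and transport of heme and hemoglobin it was 6 of 9, for iron uptake 4 of 8 with LCN2 at 44.2 and 75.2 FPKM, and for export and the hepcidin axis 5 of 8. For ferritin delivery it was 1 of 3, NCOA4 with 120 and 169 FPKM, for sensing 3 of 4 with BACH1 at 10.2 and 16.4, and for iron-sulfur cluster assembly 6 of 12 with HSPA9 at 87.6 and 134. These counts stand beside the 58.9% of all genes given above.

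Between 7 and 21 dpi 16 of the 47 pathway genes listed at both time points rose and 15 fell in ApoE3, beside 31.3% and 23.6% of all genes. In ApoE4 22 rose and 6 fell, beside 59.0% and 10.9%. After the median of all genes was subtracted, 15 were past the fold upwards and 17 downwards in ApoE3, beside 26.6% and 27.7% of all genes, and the balance turned in ApoE4, with 12 upwards and 21 downwards beside 26.1% and 28.6%. Genes of iron-sulfur cluster assembly, which consumes iron in mitochondria, were past the fold upwards in 10 of 12 cases in ApoE3 and 11 of 12 in ApoE4. After the median of all genes was subtracted these counts were 9 and 6. GLRX5 had 27.0 and 28.04 FPKM at 7 dpi, and 68.2 and 101 at 21 dpi, and ISCU had 541 and 660 at 21 dpi. Among heme synthesis genes 3 of 6 rose in ApoE3 and 4 of 6 in ApoE4, and 3 in each genotype after the subtraction. ALAD had 51.8 and 49.4 FPKM at 7 dpi and 100.4 and 137 at 21 dpi. ALAS2, the form of the first enzyme in red cell precursors, rose from 4.18 to 11.2 FPKM in ApoE3 and from 3.86 to 11.7 in ApoE4. It is also an erythroid marker, and the erythroid sum given above rose 3.08-fold and 3.85-fold. The part of erythroid cells in the heme synthesis list was not tested. TFR2, transferrin receptor 2, rose from 8.54 to 27.1 FPKM in ApoE3 and from 10.7 to 27.6 in ApoE4.

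Of the 47 pathway genes 5 fell in both genotypes, as HMOX1 did, beside 9.83% of all genes, and 16 rose in both, beside 30% of all genes. In the iron uptake list 4 of 8 fell in ApoE3 and 2 in ApoE4, and in the export and hepcidin list 4 of 6 and 1. After the subtraction 4 and 5 of the uptake list and 5 and 4 of the export list were past the fold downwards. In the sensing list, NFE2L2 was at 37.9 and 54.0 FPKM and BACH1 at 10.2 and 16.4 at 21 dpi, the 2 genes of 4 that fell in each genotype. After the subtraction 3 of the 4 in ApoE3 and all 4 in ApoE4 were past the fold downwards. STEAP3, an iron reductase of endosomes, fell from 55.5 to 15.3 FPKM in ApoE3 and from 52.7 to 20.1 in ApoE4. CP fell from 113 to 50.99 and from 114 to 46.6. NCOA4 fell from 183 to 120 in ApoE3, and its values in ApoE4, 182 and 169, were within 1.3-fold.

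The genes with the pattern most like HMOX1 were sought among 8511 genes listed at both time points with a mean of at least 10 FPKM, by Euclidean distance over the 4 group values of log2 FPKM plus 1, each centred on the mean of its gene. The nearest was CD300LF, a receptor of myeloid cells, with 132 FPKM in ApoE3 and 166 FPKM in ApoE4 at 7 dpi, and 17.3 and 29.6 at 21 dpi, at a distance of 0.091. It was followed by GLIPR1 at 0.16, LILR4B at 0.18, LOXL1 at 0.19 and MS4A6C at 0.19. The distance rests on 4 values per gene. CD163 had no values to compare.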

How the data were processed

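Lesion-site RNA of ApoE3 and ApoE4 mice at 7 and 21 dpi was measured by RNA-seq. The authors aligned reads with STAR 2.5.4b and Bowtie2, handled alignments with SAMtools 0.1.7 and deposited Cuffdiff 1.3.0 values as FPKM plus 1, with 1 value per gene, genotype and time point. The Bowtie2 version is 2.1.10 in the submitters' processing notes. The genome build is not given in the sources used here. The deposited p-value, q-value and fold change columns hold the authors' own comparison of genotypes and were not used, nor was a second table of their differential genes.

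After 1 was subtracted, symbols on more than 1 row (2 at each time point) were left out, which kept 14123 genes at 7 dpi and 11470 at 21 dpi. Ratios of a single gene between groups were log2 of FPKM plus a pseudocount of 1, which understates the change of low genes. A gene was counted when past 1.3-fold, the minimum fold in the study's methods. Ratios between genes and folds of sums used FPKM without a pseudocount. The median subtracted was taken over genes whose mean FPKM reached 1. The value columns were assigned to genotypes by the comparison label. With 1 value per group no test was run. Depth per gene is unknown.

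The genes, the 7 pathway lists and the 11 marker lists were chosen with earlier results of these data known. Named were all 9 genes, pathway genes past 1.3-fold at a time point with at least the largest ratio in each direction per list or the most abundant gene of a list with none, the most abundant and other listed markers of each list, and the 5 genes nearest to HMOX1. The nearest genes to CD163 and protein comparisons were not analysed here, and some marker genes are not reported. ABCG2, CP, FLVCR2, STEAP4, TFR2, BOLA3, STEAP3, ALAD, HMOX2, NFE2L2, ACO1 and other pathway genes named for their change between time points, their function or their value after the median was subtracted were chosen after their values were seen, as were the ratios of HMOX1 to BLVRA and to the macrophage sum. Alternatives were pseudocounts of 0.1 and 0.01, a minimum mean FPKM of 1, folds of 1.5 and 2, subtraction of the median and scaling to the 75th percentile. Computations used Python 3.11.15, numpy 2.4.6, pandas 2.3.3 and matplotlib 3.10.9. The ratio and count steps were checked on the ApoE3 values at 7 dpi with known fold changes put in. This check covers the arithmetic only, since no spread between mice was added.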

Additional observations from a re-analysis of the deposited data

Results flagged for a closer look

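The log2 ratio of ApoE4 to ApoE3 had opposite signs at the time points for SLC40A1, TFRC and LCN2. For SLC40A1, the iron exporter, it was -0.25 at 7 dpi and 0.77 at 21 dpi, a difference of 1.02. For TFRC, the transferrin receptor, it was -0.22 and 0.71, a difference of 0.93. For LCN2 of the iron uptake list it was -0.67 and 0.75, a difference of 1.43. With the all-gene median subtracted, the values at 21 dpi were 0.34, 0.28 and 0.33, still opposite in sign to those at 7 dpi. Such a turn from below 0 to above 0 was common, with 49% of the 10876 genes listed at both time points and 22 of 47 pathway genes, and 26.1% and 13 of 47 with the medians subtracted. TFRC also had opposite signs over time in the genotypes, with a log2 ratio of 21 to 7 dpi of -0.014 in ApoE3 and 0.91 in ApoE4, the same difference of 0.93. The ApoE3 value is a 1.01-fold difference, and after scaling to the 75th percentile the values were 0.10 and 0.61, with the same sign. With the all-gene medians subtracted they were -0.10 and 0.38, with opposite signs. None of these differences was tested, since each group has 1 value.

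Of the neutrophil markers listed at both time points, S100A8 and S100A9 had the same signs as LCN2 between genotypes at both, and CSF3R did not. S100A9 had 14.1 FPKM in ApoE3 and 8.19 FPKM in ApoE4 at 7 dpi, and 10.3 and 27.4 at 21 dpi, and S100A8 had 5.28 and 3.34, and 1.73 and 3.67. Over time in ApoE3 both fell, with log2 differences of -1.20 for S100A8 and -0.42 for S100A9, whereas LCN2 was at 0.57. In ApoE4 S100A9 rose by 1.63 and S100A8 was at 0.11, beside 1.998 for LCN2. MMP8 was higher in ApoE4 at 7 dpi, with 2.01 and 3.31 FPKM, and was not listed at 21 dpi. NGP was listed at 21 dpi only, where it was higher in ApoE4 as LCN2 was, with 0.62 and 1.94 FPKM. CSF3R, the most abundant of the 10 neutrophil markers, had 485 and 589 FPKM at 7 dpi and 279 and 405 at 21 dpi, and LY6G, RETNLG, MPO, CAMP and CXCR2 were not listed. The 3 markers listed at both time points summed to 504.5 and 600.4 FPKM at 7 dpi, and 291 and 436 at 21 dpi. Their part in the difference of LCN2 was not tested.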

How the results depend on the processing

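Of 145 single-gene ratios recomputed for the listed genes with another pseudocount, a minimum mean FPKM, subtraction of the median or scaling to the 75th percentile, 129 kept their side of 1.3-fold and 128 of these also their sign. The other was TFRC between 21 and 7 dpi in ApoE3, under the fold throughout, at -0.014 and at 0.10 after scaling to the 75th percentile. Another 13 kept their direction but were no longer past the fold and 1 passed it newly. Pseudocounts of 0.1 and 0.01 and the minimum mean FPKM of 1 changed no sign or side of the fold among these ratios. SLC11A1 at 21 dpi turned from 0.40 to -0.026 after the median was subtracted and to -0.0098 after scaling to the 75th percentile, which both remove the shift of all genes.

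Of the 4 genes higher in ApoE4 at 7 dpi, 0 were past a fold of 1.5 and 0 past 2. Of the 7 at 21 dpi, 6 were past 1.5, 0 past 2, 0 after the median was subtracted and 0 after scaling to the 75th percentile. Higher at 21 than at 7 dpi in ApoE3 were 1 gene, 0 at a fold of 2 and 2 after scaling to the 75th percentile. In ApoE4 these were 3 genes, and 1 at a fold of 2. Counts of falling genes stayed at 3 or 4 in both genotypes.

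Of the pathway genes, 2 were higher in ApoE3 at 7 dpi, 3 at a pseudocount of 0.1 or 0.01, 1 at a fold of 1.5 and 0 at 2. At 21 dpi 29 were higher in ApoE4, 32 at a pseudocount of 0.1 or 0.01, 13 at a fold of 1.5, 4 at 2, 4 after the median was subtracted and 4 after scaling to the 75th percentile. Higher in ApoE3 at 21 dpi were 0, with 1 at a pseudocount of 0.1, 1 at 0.01, 7 after the median was subtracted and 4 after scaling to the 75th percentile. Beyond the shift that these scalings remove, the cause was not tested.

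The reading of the genotype columns decides every direction between genotypes, and none of the alternatives above bears on it. No paired analysis was possible because each group has 1 pooled value, and there was no replicate to leave out. The reads behind each gene are unknown, which limits the precision most for low genes such as HAMP.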
